A study of Canis lupus familiaris with 13 samples.

Results

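RNA levels of 6 signal transducers of the STAT family (STAT2, STAT3, STAT4, STAT5A, STAT5B, and STAT6) and of 3 feedback inhibitors of the same pathway (SOCS1, SOCS3, and CISH) were followed in canine tumors treated with IMAX. The 9 genes were taken by symbol from the 43427 rows of the count table, all 9 were present, and all 9 were among the 20118 genes that passed the filter on low counts. IMAX is a nanoparticle made of a polyethyleneimine–lithocholic acid conjugate that carries the cytotoxic drug paclitaxel and a cyclic dinucleotide, a class of molecule that activates STING, and it was injected into the tumor. Biopsies came from 4 tumors in 3 companion dogs with naturally occurring cancer, sampled before and after treatment.

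Dog RV had a soft tissue sarcoma and gave 4 libraries, taken before treatment, at 2 days (dose 2), and at 2 weeks (dose 3), the last at the injection site and at an adjacent site, where the dose is the one from which the time is counted. Dog CL had a cranial and a caudal mammary tumor and gave 6 libraries, taken before treatment and, counted from the second dose, at 1 week and at 1 month. Dog BM gave 3 libraries of a mass in a left mammary gland, taken before treatment and, also counted from the second dose, at 1 week and at 3 weeks. The libraries form 3 time groups, before treatment (4 libraries), early after treatment (4 libraries at 2 days or 1 week), and late after treatment (5 libraries at 2 weeks to 1 month). The late biopsies of RV thus followed a further dose, those of CL and BM did not, and biopsy times were chosen dog by dog. No untreated or vehicle-injected tumor was sequenced, so the effect of IMAX cannot be told apart from that of injection, repeated biopsy, or time.

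Cytokines such as interferons and interleukins bind receptor chains that carry JAK kinases. The kinases phosphorylate STAT proteins, which pair, enter the nucleus, and switch on target genes. SOCS1, SOCS3, and CISH are themselves such targets, and their proteins block the receptors or kinases that induced them, so their RNA is a common readout of recent signaling, whereas STAT activity itself depends on phosphorylation that RNA does not report.

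The libraries held 11622444 to 29931125 counts on genes, and a gene at 3 counts corresponded to 0.0831 to 0.262 CPM (counts scaled by library size and TMM factor). Every member had at least 5 counts in every library. Luminal epithelial markers (12 genes) averaged 1.34 to 3.30 log2 CPM in the sarcoma libraries and 3.50 to 7.84 in the mammary libraries, the lowest mammary value being the late library of BM. The early library of RV stood apart in its epidermal markers (10 tested genes), at 7.89 log2 CPM against 0.34 to 5.02 in the other 12 libraries. Its fibroblast markers were at 7.21 log2 CPM, against 10.07 in RV before treatment. The paper's histology of RV at this time gave granulomatous to pyogranulomatous dermatitis, and tumor cells were not identified with certainty. Values of RV early therefore cannot be taken as those of tumor cells. BM late also differed from BM before treatment, by -3.87 log2 in luminal epithelial, -4.69 in epidermal, and 4.79 in fibroblast markers. The paper's histology of BM at this time described areas of carcinosarcoma, with little inflammation. Differences between BM late and BM before treatment are thus between tissues that also differ in make-up. Libraries also differed in the level of genes from gene-dense relative to gene-sparse regions, from -1.47 log2 in RV early and -1.16 in CL caudal before treatment to 1.11 in BM late. As bulk tissue was sequenced, more cells of a type and more RNA per cell cannot be told apart for any value below.

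Among the 9 genes, SOCS3 had the largest difference between early and pretreatment biopsies, and SOCS3 and STAT2 had the smallest p-values, with lower values again in the late biopsies. Relative to the biopsy before treatment, SOCS3 was 9-fold higher early (log2 fold change 3.17 ± 0.65 SE) and STAT2 was 2.39-fold higher (1.26 ± 0.36). STAT6 and SOCS1 had differences of the size of that of STAT2 with wider errors (1.37 ± 0.68 and 1.25 ± 0.66), and STAT3, STAT4, STAT5A, STAT5B, and CISH lay between -0.06 and 0.27. In the edgeR fit, adjusted by the Benjamini-Hochberg method over all 20118 genes, 0 of the 9 members passed an adjusted p of 0.05 in this comparison, and 0.00497% of all genes did. The adjusted p was 0.142 for SOCS3, 0.237 for STAT2, and 0.49 or higher for the other members. At an unadjusted p under 0.05, STAT2 and SOCS3 were higher, 2 of 9 members, where 7.70% of all genes were. STAT2, STAT6, and SOCS3 were higher in all 4 tumors, 3 of 9 members, against 10.8% of all genes. STAT2 alone of the members had early and pretreatment groups that did not overlap, a pattern of higher values seen in 2.71% of all genes. The median over the 9 members was 0.27, next to 0.25 over all genes. It was 0.58 without the pretreatment library of CL cranial, 0.55 without that of RV, 0.47 without CL cranial early, and 0.05 with offsets that remove the trend with gene density and gene span, an alternative chosen after the data were seen, under which the median of all genes was -0.07. DESeq2's Wald test gave an adjusted p of 3.49e-05 for SOCS3 and 0.0167 for STAT2, and called 956 genes where edgeR called 1. Over all alternatives the adjusted p ranged from 3.49e-05 to 0.585 for SOCS3 and from 0.0167 to 0.739 for STAT2.

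**Figure D1:**
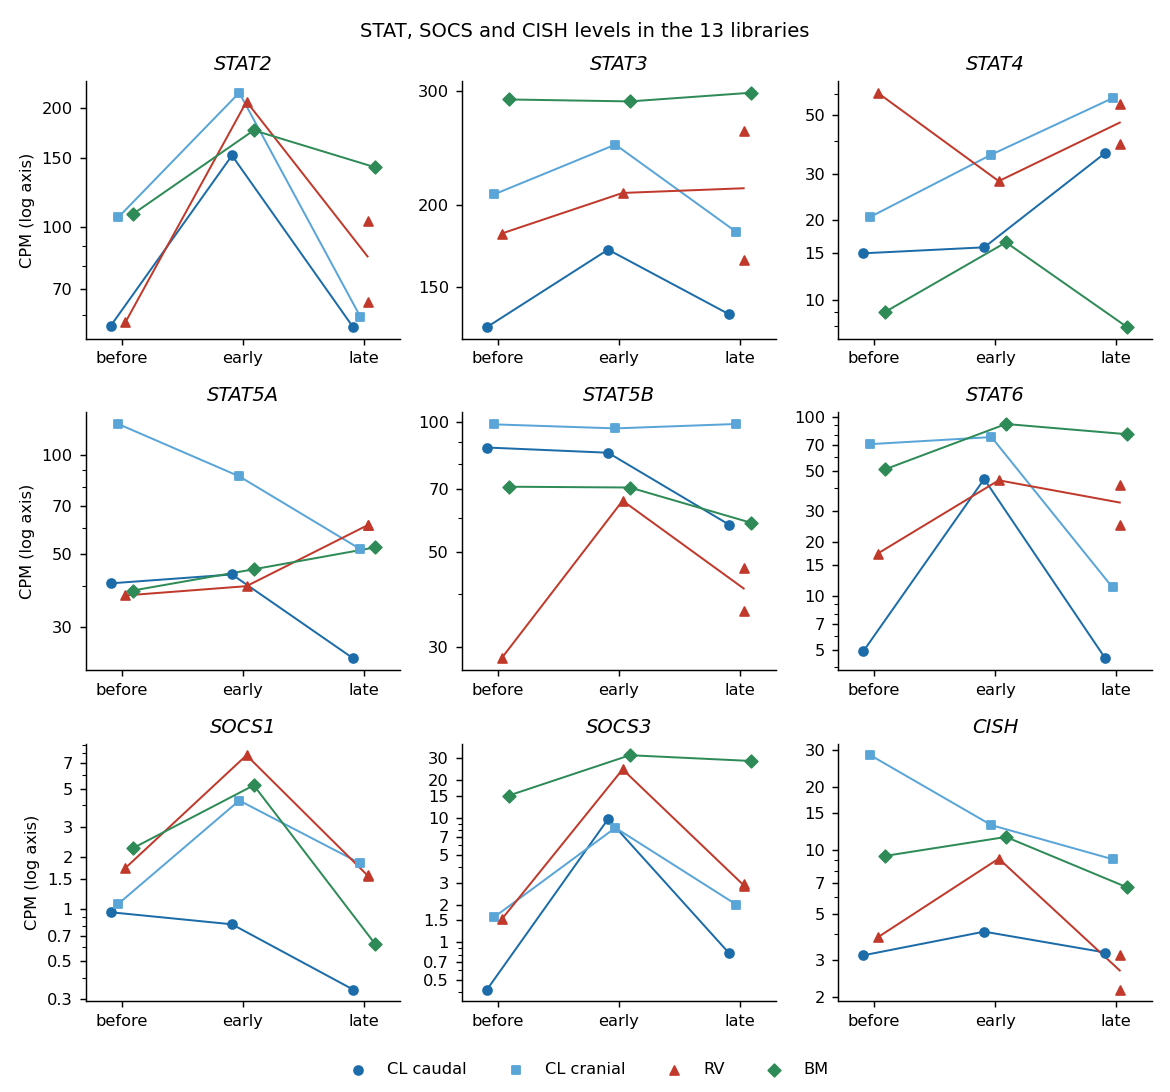
RNA level in CPM on a log axis (vertical) of the 9 genes before treatment, early, and late (horizontal), with 1 point per library and 1 line per tumor. For RV the line runs to the mean of its 2 late sites. The early values of STAT2 (152 to 219 CPM) all lie above its values before treatment (56.5 to 108 CPM), and SOCS3 peaks early in each tumor.

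The late biopsies were compared with the same tumors before treatment. Fitted differences lay between -0.10 and 0.06 log2 for STAT2, STAT3, STAT5A, STAT5B, and STAT6 (SE 0.29 to 0.67). STAT4 was at 0.50 ± 0.44. Tumors differed in direction behind these values, with STAT6 at -0.12, -2.65, 0.89, and 0.65 in CL caudal, CL cranial, RV, and BM. The inhibitors were at 0.72 ± 0.57 for SOCS3, -0.68 ± 0.64 for SOCS1, and -0.75 ± 0.49 for CISH. Single libraries moved these values, SOCS1 to -0.26 without CL caudal before treatment, CISH to -0.36 without CL cranial before treatment, and STAT4 to 1.04 without RV before treatment and 0.25 without CL caudal late. None of the 9 members passed an adjusted p of 0.05 in edgeR (adjusted p 0.973 to 0.996), as was the case for 0% of all genes. At an unadjusted p under 0.05, 0 members were higher or lower, where 1.28% of all genes were higher and 2.72% lower. SOCS3 was the 1 member higher in all 4 tumors, against 7.13% of all genes.

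The comparison of late with early biopsies shares the early libraries with the first comparison and the late ones with the second, and is not independent of them. In it, 8 of 9 members had a negative log2 fold change and 1 was above 0, where 7808 of 20118 genes were above 0. SOCS3 was at -2.45 ± 0.58 (0.183 of its early level), SOCS1 at -1.94 ± 0.62 (0.261), STAT6 at -1.44 ± 0.67 (0.37), STAT2 at -1.20 ± 0.34 (0.435), and CISH at -0.95 ± 0.47 (0.517). STAT6 was at -0.69 without CL caudal early, and CISH at -0.52 without RV early. By edgeR's quasi-likelihood test, 0 of 9 passed an adjusted p of 0.05, as did 0.00994% of all genes, and the adjusted p was 0.0612 for SOCS3, 0.072 for STAT2, and 0.0898 for SOCS1. At an unadjusted p under 0.05, those 3 members were lower, as were 17.7% of all genes. STAT2, STAT6, SOCS1, SOCS3, and CISH were lower in all 4 tumors, 5 of 9 members against 17.4% of all genes. The late values of STAT2 all lay below its early values, a pattern of 4.49% of all genes. The median of the members was -0.95 and that of all genes -0.35. A single library mattered here, since without the early library of BM the adjusted p was 0.0358 for SOCS3 (log2 fold change -2.94) and 0.0423 for STAT2 (-1.39). DESeq2's Wald test called SOCS3 (adjusted p = 0.000401), STAT2 (0.00384), and SOCS1 (0.00582). Over all alternatives the adjusted p ranged from 0.000401 to 0.494 for SOCS3, from 0.00384 to 0.289 for STAT2, and from 0.00582 to 0.32 for SOCS1.

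**Figure D2:**
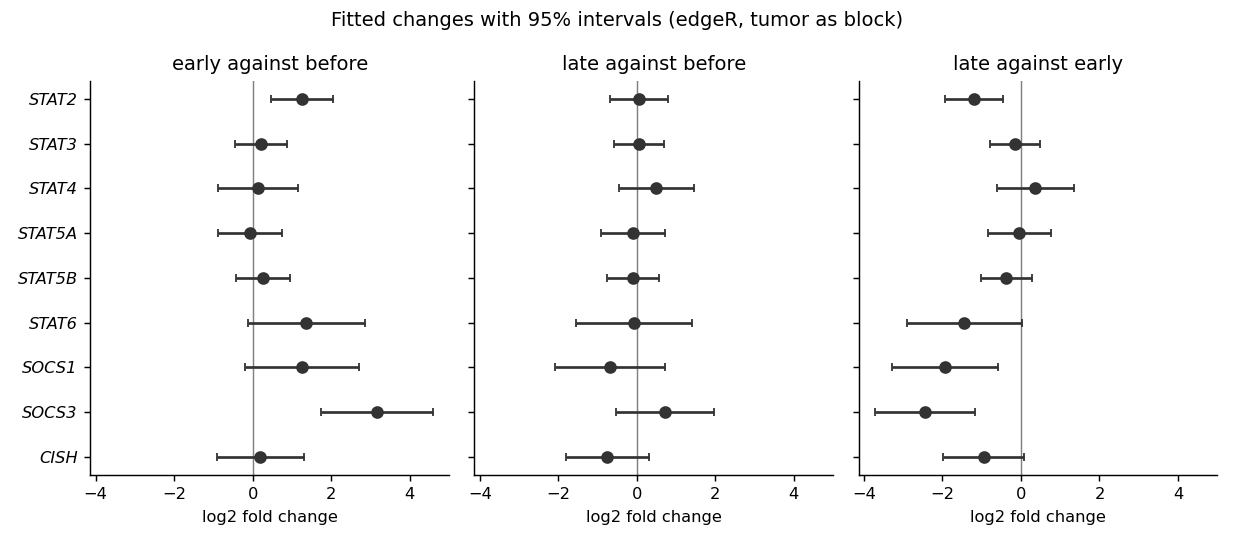
Log2 fold change of each gene (horizontal) with its 95% interval in the 3 comparisons of time groups, fitted in edgeR with the tumor as block over 13 libraries. The intervals of SOCS3 and STAT2 lie above 0 in the early biopsies against those before treatment (1.75 to 4.59 and 0.48 to 2.04), and all 9 intervals include 0 in the late biopsies against those before treatment.

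STAT2 is the partner that, in response to type I interferon, joins the complex driving interferon-stimulated genes. Its level before treatment was 56.5 CPM in CL caudal, 106 in CL cranial, 57.6 in RV, and 108 in BM. Early values were 152, 219, 208, and 176 CPM in the same order. Late values were 56.0 in CL caudal, 59.5 in CL cranial, 64.9 and 104 in RV at the injection and adjacent sites, and 142 in BM. The early libraries were all higher than the other 9, and the tumors differed most in how far the late value came back, with CL cranial below its start and BM above it. The early-against-before difference was 1.43, 1.04, 1.85, and 0.70 log2 in CL caudal, CL cranial, RV, and BM (1.25 ± 0.50 SD, n = 4, exact two-sided sign-flip test p = 0.13, the smallest that 4 tumors allow). Leaving out CL caudal before treatment or RV early gave 1.22 and 1.17. STAT2 lies in the most gene-dense region of the members (65 genes within 500 kb, the 94.9 percentile of genes with a position). With the gene density and span offsets its early difference was 0.78 (unadjusted p = 0.0591, edgeR) in place of 1.26 (0.00423), and its late-against-early difference -0.60 (0.109) in place of -1.20 (0.004). STAT2 had an r of -0.05 with the gene-dense score over the 13 libraries, with tumor means removed. Whether gene density accounts for the STAT2 levels was not tested.

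STAT6 transmits signals of interleukin 4 and interleukin 13. Its early biopsies were at 45.1 CPM in CL caudal, 77.4 in CL cranial, 44.4 in RV, and 91.6 in BM. Before treatment the same tumors were at 4.91, 70.7, 17.3, and 51.1 CPM. Late values were 4.50 in CL caudal, 11.2 in CL cranial, 25 and 41.7 at the sites of RV, and 80.3 in BM. The early values were the highest of each tumor, but the size of the step varied more than for STAT2, from 0.13 log2 in CL cranial to 3.18 in CL caudal, and the groups overlapped. STAT6 is also in a gene-dense region (51 genes within 500 kb, the 87.3 percentile). Its 2 lowest values came from CL caudal before treatment and late, libraries with gene-dense scores of -1.16 and -0.85. RV early had the lowest score, -1.47, and the highest STAT6 level of RV. CL cranial late, at 11.2 CPM, had a gene-dense score of -0.31. Over the 13 libraries, with tumor means removed, STAT6 had an r of 0.39 with that score. Whether gene density accounts for the STAT6 levels was not tested. The offsets took the early difference of STAT6 from 1.37 to 0.97. Leaving out the early library of CL caudal took it to 0.56, and leaving out CL cranial before treatment took it to 2.19.

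STAT3 is the main transducer for interleukin 6, interleukin 10, and related cytokines, and it induces SOCS3. It varied least of the members, between 130 and 298 CPM over the 13 libraries. Before treatment it was at 130, 208, 181, and 291 CPM in CL caudal, CL cranial, RV, and BM. Early it was at 171, 248, 209, and 289 CPM, and late at 136, 182, 165 and 260 (the sites of RV), and 298 CPM. The early differences within tumors were -0.01 to 0.40 log2, and the fitted difference was 0.22 with a 95% interval of -0.45 to 0.88.

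STAT5A and STAT5B carry prolactin, growth hormone, and interleukin 2 signals, and STAT5A is required for the milk-producing mammary epithelium. With STAT3 they form a run of neighbors on chromosome 9 of the UU_Cfam_GSD_1.0 assembly, STAT3 at chr9:20413942-20489100, STAT5A at chr9:20490411-20512845, and STAT5B at chr9:20522505-20592735, with 1310 bases between the first pair and 9659 between the second. STAT5A and STAT5B are close paralogs, and how reads matching both were counted is not given in the sources used here, so their separate values are uncertain. STAT5A was at 40.7, 124, 37.4, and 38.7 CPM before treatment in CL caudal, CL cranial, RV, and BM, at 43.3, 86.0, 39.9, and 44.9 CPM early, and at 24.1, 51.7, 61.0 and 61.2 (the sites of RV), and 52.3 CPM late. CL cranial started far above the others, and its value was lower at each later time. The late-against-before difference was -0.75 and -1.26 log2 in CL caudal and CL cranial, and 0.71 and 0.44 in RV and BM.

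STAT5B was at 87.3, 98.8, 28.3, and 70.8 CPM before treatment, at 84.9, 96.7, 65.7, and 70.5 CPM early, and at 57.8, 99.0, 36.4 and 45.8 (the sites of RV), and 58.4 CPM late, in the same order of tumors. In the mammary tumors the early biopsy differed from that before treatment by -0.04 to -0.01 log2, and in RV by 1.21. Without RV the fitted early difference was -0.02. STAT5A accounted for 31.8%, 55.7%, 57%, and 35.3% of the STAT5A and STAT5B counts before treatment in CL caudal, CL cranial, RV, and BM. Early the share was 33.8%, 47.1%, 37.8%, and 38.9%. The Wilson 95% intervals of RV before treatment (53.8 to 60.0%) and RV early (35.6 to 40%) did not overlap. At 2 weeks the shares of the RV sites were 62.7% and 57.2%, so the early share was the lowest of the 4 RV libraries.

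STAT4 transmits interleukin 12 signals in T cells and natural killer cells. It was at 15.0 CPM in CL caudal, 20.6 in CL cranial, 60.6 in RV, and 9 in BM before treatment. Early it was at 15.8, 35.4, 28.1, and 16.5 CPM. Late it was at 35.9 in CL caudal, 57.8 in CL cranial, 38.7 and 54.8 at the sites of RV, and 7.90 in BM. Both CL tumors had their highest STAT4 level in the late biopsy (1.25 and 1.48 log2 over their start), while RV and BM did not (-0.40 and -0.19). T cell markers were higher in the same late CL libraries by 2.15 and 2.01 log2, B and plasma cell markers by 2.25 and 2.49, and natural killer and cytotoxic cell markers by 2.3 and 3.03. In RV and BM the T cell list differed by 0.25 and 0.20, the B and plasma cell list by -0.03 and -0.29, and the natural killer and cytotoxic cell list by 0.63 and 1.19. Early against before, STAT4 differed by 0.07, 0.78, -1.11, and 0.87 log2 in CL caudal, CL cranial, RV, and BM. The T cell list differed by 1.22, 3.13, 0.84, and 1.01, and the natural killer and cytotoxic cell list by 1.02, 3.55, 0.33, and 2.12. In CL cranial both lists were thus highest early and STAT4 late, and in RV early STAT4 was lower while both were higher. The CL tumors come from 1 dog, and the part of these cells in the STAT4 values was not tested.

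SOCS3, induced by STAT3 and a brake on interleukin 6 type receptors, was the member with the widest range, 0.419 to 31.8 CPM. Its gene is short and lies at chr9:3738946-3739623. In CL caudal it was at 0.419 CPM before treatment (7 counts), 9.78 early (240 counts), and 0.819 late (12 counts). In CL cranial it was at 1.60, 8.32, and 2.01 CPM. In RV it was at 1.53 CPM, then 24.5, then 2.92 at the injection site and 2.84 at the adjacent site. BM differed from the other tumors, with 15.1 CPM before treatment, 31.8 early, and 28.6 late. Because of BM, the early and pretreatment groups overlapped, although SOCS3 was higher early in each tumor, by 4.26, 2.31, 3.92, and 1.07 log2 in CL caudal, CL cranial, RV, and BM (2.89 ± 1.48 SD, n = 4, exact two-sided sign-flip test p = 0.13). Without the pretreatment library of CL caudal, which held 7 counts, the fitted difference was 2.85, and without RV early it was 2.81. The result rests on the pairing by tumor, since with no replicate block SOCS3 was at 1.99 early against before (unadjusted p = 0.119, edgeR) and at -1.32 late against early (0.249).

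Late SOCS3 stood above its own baseline by 0.83, 0.31, 0.87, and 0.92 log2 (0.73 ± 0.28 SD, n = 4, exact two-sided sign-flip test p = 0.13). Exact Poisson 95% intervals of the CPM, which cover counting error only, overlapped between late and before in CL caudal (0.423 to 1.43 against 0.168 to 0.863), in CL cranial (1.27 to 3.02 against 1.1 to 2.24), and at both RV sites, and were separate in BM (26.5 to 30.8 against 13.8 to 16.4). Leaving out the late library of BM took the fitted late difference from 0.72 to 0.32.

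Ratios of counts inside a library do not depend on how libraries are scaled. Per 100 STAT3 counts, SOCS3 had 0.322, 0.769, 0.849, and 5.19 counts before treatment in CL caudal, CL cranial, RV, and BM. Early it had 5.70, 3.36, 11.7, and 11.0 counts. Late it had 0.602, 1.1, 1.77 and 1.09 (the sites of RV), and 9.59. The ratio was higher early in 4 of 4 tumors (mean log2 difference 2.79 ± 1.44 SD) and late in 4 of 4 tumors (0.76 ± 0.18 SD), with p = 0.13 in the exact sign-flip test for each. STAT2 per 100 STAT3 counts was at 43.4, 51.0, 31.9, and 37.3 before treatment, at 88.8, 88.4, 99.3, and 60.9 early, and at 41.2, 32.6, 39.4 and 39.8 (the sites of RV), and 47.6 late. The 4 early ratios were above the other 9. STAT6 per 100 STAT3 counts was higher early in 3 of 4 tumors, CL cranial being the exception (-0.12 log2).

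**Figure D3:**
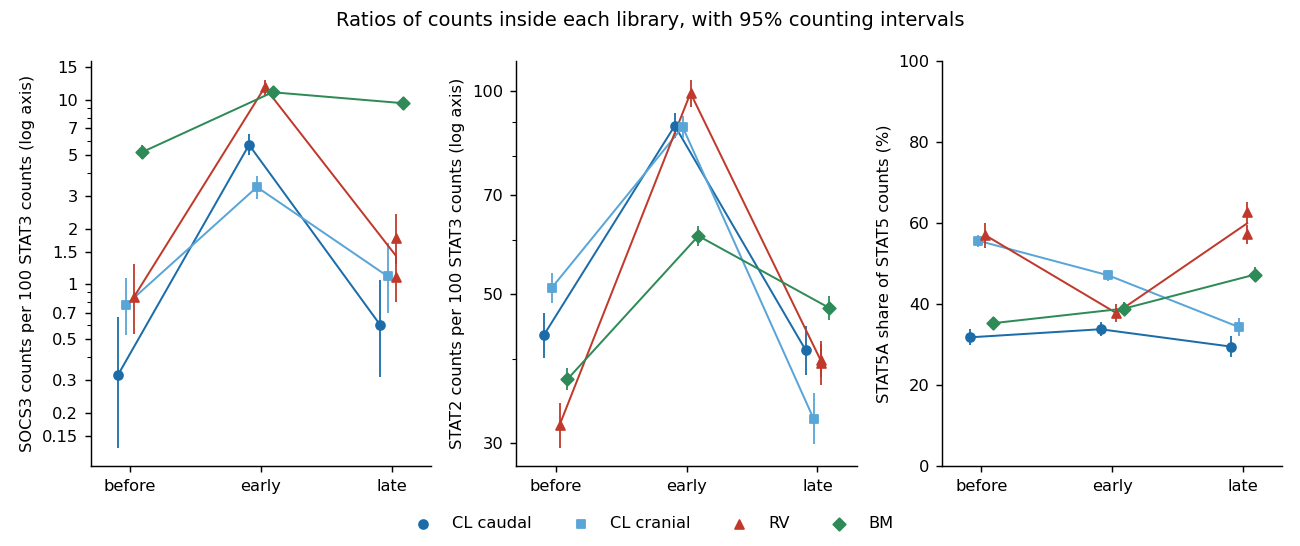
Counts of SOCS3 and of STAT2 per 100 STAT3 counts (log axes) and the share of STAT5A in the STAT5A and STAT5B counts in percent (linear axis) by time group, with 1 point per library, 1 line per tumor, and 95% counting intervals. The STAT2 ratio is 60.9 to 99.3 early and 31.9 to 51.0 in the other libraries, and the STAT5A share of RV drops early to 37.8%.

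SOCS1 inhibits JAK kinases and is induced by interferons. It was at 0.957, 1.07, 1.73, and 2.25 CPM before treatment in CL caudal, CL cranial, RV, and BM. Early it was at 0.815, 4.26, 7.80, and 5.22 CPM. Late it was at 0.341, 1.84, 1.56 and 1.57 (the sites of RV), and 0.630 CPM. It was higher early in 3 of 4 tumors (1.91, 2.11, and 1.18 log2), and CL caudal was the exception at -0.21, where the 20 early and 16 pretreatment counts gave overlapping intervals (0.498 to 1.26 and 0.547 to 1.55 CPM). The late value was below the early one in all 4 tumors, by 1.06 to 2.87 log2. BM, which kept SOCS3 near its early level, had SOCS1 below its start in the late biopsy (-1.69 log2). That biopsy also differed from the start in its epithelial and fibroblast markers, and their part in these values was not tested.

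CISH is a target of STAT5 and limits signals of interleukin 2 and growth hormone type receptors. It was at 3.17, 28.4, 3.86, and 9.42 CPM before treatment, at 4.11, 13.2, 9.15, and 11.6 CPM early, and at 3.27, 9.09, 3.19 and 2.18 (the sites of RV), and 6.68 CPM late. CL cranial had the highest pretreatment level of CISH, as it had of STAT5A, and both were lower in its early library (-1.1 and -0.53 log2) and its late library (-1.63 and -1.26). In RV, CISH was higher early by 1.22 log2, next to 1.21 for STAT5B and 0.09 for STAT5A.

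The late sites of RV give the 1 comparison of 2 places in a tumor at the same time. STAT2, STAT3, and STAT6 were higher at the adjacent site by 0.67, 0.66, and 0.74 log2, STAT4 by 0.50, and STAT5B by 0.33. STAT5A, SOCS1, and SOCS3 differed by -0.04 to 0.01, and CISH was lower there (-0.53). Each site has 1 library, so no test was made.

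Other genes of the pathway were read from the same edgeR fit, and 0 genes of the 7 lists passed an adjusted p of 0.05 in any comparison. The values that follow are of genes at an unadjusted p under 0.05, set against 7.70% of all genes that were higher early. Lower early were 635 of all 20118 genes. Of the 4 JAK kinases, 2 were higher early. JAK3, the kinase of lymphoid and myeloid cytokine receptors, was at 4.95 ± 3.61 CPM (SD, n = 4) before treatment and 29.3 ± 13.1 early (log2 fold change 2.79 ± 0.65 SE). TYK2, which serves the interferon and interleukin 12 receptors, was at 20.4 ± 15.3 and 39.7 ± 11.6 CPM (1.19 ± 0.45). Both were lower in late than in early biopsies (-2.31 ± 0.60 and -1.18 ± 0.42).

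Of the 33 tested receptor chains, 12 were higher early and 1 lower, with a list median of 0.91 against 0.25 for all genes. IL4R, which signals to STAT6, was at 11.2 ± 3.75 CPM before treatment and 52.4 ± 18.3 early (2.28 ± 0.41), and IL10RA, which signals to STAT3, at 10.5 ± 3.14 and 53.6 ± 29.0 (2.31 ± 0.43). IL7R, which signals to STAT5, was at 8.93 ± 4.10 and 84.7 ± 64.5 CPM (3.27 ± 0.68). LIFR, the receptor of leukemia inhibitory factor, was the chain that was lower (-1.78 ± 0.54). Of the 16 tested ligands of the 26 listed, 5 were higher early, with a median of 2.13. IL10 was at 3.14 ± 1.68 and 10.8 ± 2.79 CPM (2.03 ± 0.63), and EBI3, a subunit of interleukin 27, at 0.960 ± 0.749 and 7.66 ± 4.16 CPM (3.56 ± 0.88).

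Of the 17 other inhibitors of the pathway, 4 were higher early and 1 lower, with a median of 0.18. The phosphatases PTPN6 and PTPRC were higher by 2.15 ± 0.49 and 1.95 ± 0.55 log2, and USP18, an interferon-induced inhibitor that acts on the type I interferon receptor, by 2.40 ± 0.81. SOCS4, of the same family as SOCS1 and SOCS3, was lower (-0.82 ± 0.33, in 4 of 4 tumors). Of all 20118 genes, 1579 were lower early in all 4 tumors. PTPN6 and PTPRC are also abundant in leukocytes in general. Of 17 tested target genes of STAT3 and STAT5, 9 were higher early, with a median of 1.14. Among them were JUNB (1.96 ± 0.41), a transcription factor, and BCL3 (2.69 ± 0.69), a partner of NF-κB. Of 11 lineage partners and targets of STAT4 and STAT6, 5 were higher early, including FCER2 (5.20 ± 1.34), the low-affinity IgE receptor, and CIITA (2.24 ± 0.64), which switches on MHC class II. A list of mammary genes linked to STAT5 joined milk protein genes with hormone receptors and regulators such as ELF5, so not all are STAT5 targets. Of its 10 tested genes, 1 was higher early, the milk protein gene CSN2 (3.14 ± 1.25). CSN2 was higher in 3 of 4 tumors and had an early level of 9.30 ± 17.3 CPM, a spread wider than its mean.

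From early to late, 2 JAK kinases, 11 receptor chains, 6 ligands, 5 other inhibitors, 8 targets of STAT3 and STAT5, and 6 partners and targets of STAT4 and STAT6 were lower at an unadjusted p under 0.05, against 17.7% of all genes. The medians of these lists were -0.73, -0.84, -1.91, -0.27, -1.08, and -1.84, next to -0.35 for all genes. Of the mammary list, 1 of 10 genes was lower, ELF5 (-2.56 ± 0.82), a regulator of milk-producing cells, with a list median of -1.06. The receptor chains LIFR (1.41 ± 0.51) and GHR (1.33 ± 0.56), the growth hormone receptor, were the listed genes that were higher late than early. Of all 20118 genes, 1785 were higher in that comparison. Late against before, the mammary list had a median of 0.72 (7 of 10 above 0) and the other 6 lists between -0.12 and 0.16. At that threshold 1 of 108 list entries was higher (0.926%), EOMES, and 1 was lower, IL1RL1, shares below those of all genes in the same comparison (1.28% and 2.72%).

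Markers of other cell types moved with several members. The 12 macrophage markers, all tested and none at 0 in all libraries, summed to 308 to 813 CPM before treatment, 1270 to 3530 early, and 384 to 1420 late. Endothelial markers (10 of 10 tested) summed to 47.2 to 181, 132 to 1830, and 59.3 to 306 CPM. After removal of each tumor's mean, STAT2 had a Pearson r of 0.80 with the macrophage and 0.81 with the endothelial list over the 13 libraries, and SOCS3 had 0.78 and 0.75. STAT2 and SOCS3 also had 0.72 and 0.64 with skeletal muscle markers, and 0.59 and 0.51 with bone markers. The libraries share tumors and time points, so these values describe and carry no test. Within tumors the early differences of the macrophage list were 1.12, 2.19, 2.03, and 3.07 log2 in CL caudal, CL cranial, RV, and BM, and those of SOCS3 were 4.26, 2.31, 3.92, and 1.07. BM thus had the largest step of the macrophage list and the smallest of SOCS3. The part of these cells in the levels of STAT2 and SOCS3 was not tested.

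Neutrophil markers (11 of 12 tested) summed to 52.1 to 2130 CPM before treatment, 74.8 to 7140 early, and 43.5 to 1420 late. The sums did not follow the list mean of log2 CPM. BM late summed to 1420 CPM at a mean of 0.65, and CL cranial early to 655 CPM at a mean of 4.85. The r and the differences use the list mean. The r of the neutrophil list was 0.80 with SOCS1 and 0.69 with STAT5B. In the early biopsies this list differed by -1.18, 3.46, 5.88, and -0.30 log2 in CL caudal, CL cranial, RV, and BM, and SOCS1 by -0.21, 1.91, 2.11, and 1.18. RV early also held the high epidermal signal, with the list at 6.60 log2 over its start. STAT5B was at 65.7 CPM there, 36.4 and 45.8 at the late RV sites, and 28.3 before treatment. At those late sites the epidermal list was at 1.33 and 0.87 log2 CPM, against 1.28 before treatment. The part of epidermis or neutrophils in the STAT5B and SOCS1 values was not tested. Without RV early the fitted early difference was 1.06 for SOCS1 and 0.09 for STAT5B, instead of 1.25 and 0.27. STAT4 had an r of 0.74 with B and plasma cell markers (9 of 9 tested, 84.5 to 653, 59.2 to 849, and 70.0 to 1450 CPM in the 3 time groups) and 0.67 with natural killer and cytotoxic cell markers (9 of 9 tested, 9.63 to 25.3, 17.9 to 129, and 29.6 to 130 CPM). STAT5A had -0.72 with the B and plasma cell list. CISH had its highest r, 0.77, with skeletal muscle markers, which summed to at most 205 CPM in any library. STAT3 had no r above 0.50. T cell markers (12 of 12 tested, 22.1 to 57.3, 46.6 to 578, and 51.8 to 161 CPM in the 3 time groups) had their highest r with STAT4 (0.51), luminal epithelial markers with SOCS1 (0.65), epidermal markers with STAT5B (0.68), fibroblast markers with STAT5A (0.48), and bone markers with STAT2 (0.59).

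**Figure D4:**
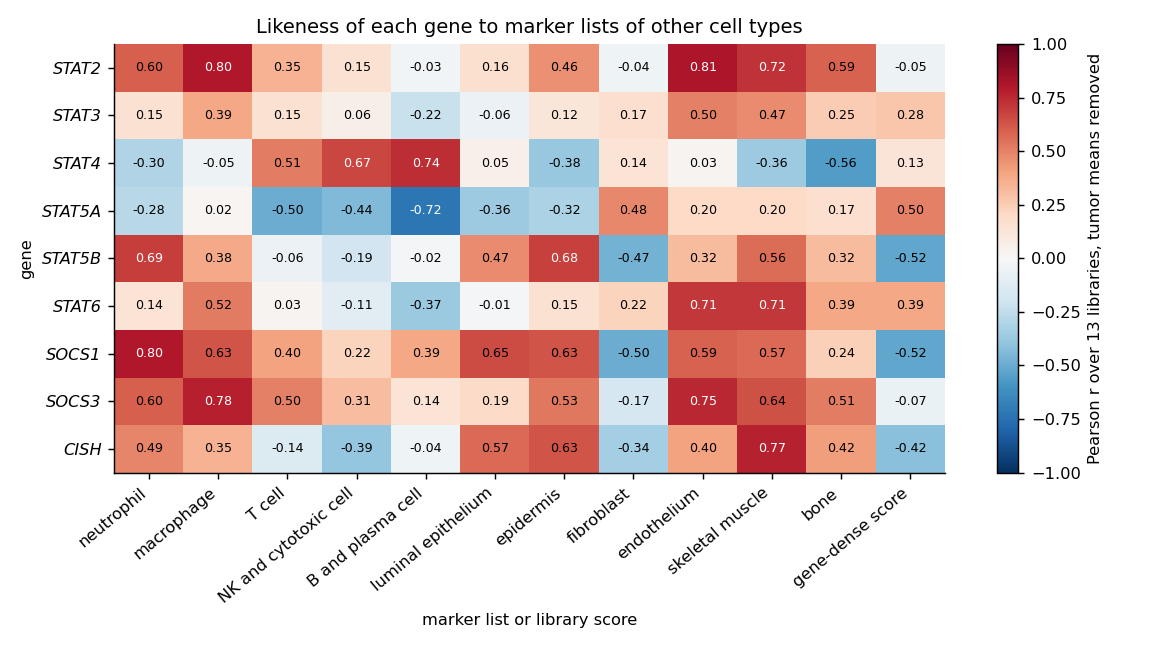
Pearson r (color, and printed in each cell) between the log2 CPM of each gene (rows) and the mean log2 CPM of 11 marker lists and the gene-dense score (columns) over 13 libraries, with tumor means removed. STAT2 and SOCS3 have their highest values with macrophage and endothelial markers, next to 0.72 and 0.64 with skeletal muscle markers. STAT4 has its highest with B and plasma cell markers (0.74).

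Among the members themselves, the highest r was between STAT2 and SOCS3 (0.90), followed by STAT2 and STAT6 (0.85). STAT4 had negative values with the other 8 members, from -0.63 with STAT5A to -0.04 with SOCS1. STAT5A and STAT5B, neighbors on the chromosome, had 0.18. Against 12426 other genes of sufficient level, STAT6 had 354 genes at an r of 0.9 or more, STAT2 149, and SOCS3 77, while the other 6 members had 1 to 11. The 3 genes most like STAT2 were SMAP2 (0.99), ADAR (0.975), an RNA-editing enzyme with an interferon-induced form, and MPP1 (0.971). Those most like SOCS3 were RNF19B (0.97), MFSD12 (0.969), and SCARF1 (0.967). STAT6 was closest to CACTIN (0.988), FAM160B2 (0.986), and KRI1 (0.982). STAT4 had DERL3 (0.937), a gene known for high levels in plasma cells, and then LRCH1 (0.862) and WWP1 (0.853). STAT5B had NFIL3 (0.927), TBC1D30 (0.878), and C10H2orf92 (0.863), and STAT5A had MYORG (0.919), EHHADH (0.909), and DRC3 (0.891). STAT3 had SPECC1L (0.928), IQGAP1 (0.921), and STK4 (0.914). SOCS1 was closest to MUC13 (0.958), PLEKHS1 (0.952), and SYN2 (0.946), and CISH to C17H1orf56 (0.925), CUX2 (0.92), and CCDC85C (0.911).

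Before treatment, the sarcoma lay outside the range of the 3 mammary tumors in 3 of 9 members, and 53.3% of all genes tested did so, so the members give no result here beyond their levels. STAT4 was at 60.6 CPM in RV and at 9 to 20.6 CPM in the mammary tumors. STAT5B was at 28.3 CPM in RV against 70.8 to 98.8, and STAT5A at 37.4 against 38.7 to 124, the last a narrow gap. The other 6 members overlapped. As 1 sarcoma in 1 dog was sequenced, tumor type and dog cannot be told apart. Over all libraries the 4 sarcoma values overlapped the 9 mammary values for all 9 members.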

How the data were processed

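RNA was measured in 13 strand-specific libraries of tumor biopsies. Strand NGS was used for alignment to CanFam4.0, and the authors deposited the unnormalized counts of each gene symbol. The counting rule, strand setting, and annotation release are not given in the sources used here, so values of paralogs and overlapping genes are uncertain. The submitters' notes name edgeR, whose normalized values were not used here. Positions came from RefSeq genes of UU_Cfam_GSD_1.0, which matched 98.0% of symbols.

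Low genes were removed by filterByExpr (time group, minimum count 10), and the rest were normalized by TMM, and fitted with glmQLFit (robust) and glmQLFTest in edgeR 4.0.16 (R 4.3.3), with tumor and time group as factors over all 13 libraries. The common biological coefficient of variation was 0.672, with 7 residual degrees of freedom. Benjamini-Hochberg adjustment ran over 20118 genes. Changes within a tumor are differences of log2 CPM (prior count 2), with the late RV sites averaged, and each tumor and time has otherwise 1 library. Intervals (Poisson exact, Wilson for shares) reflect counting error alone, as PCR copies of a molecule could not be recognized. Depth, 11622444 to 29931125 counts per library, sets a floor of 3 counts.

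Libraries were paired by tumor, since the same mass was biopsied repeatedly. Deviations of libraries of the same tumor had a mean correlation of 0.23 between early and before, 0.59 between late and before, and 0.19 between late and early. Each pair of libraries differed by more than sampling noise (lowest chi-square divided by its degrees of freedom, 31.3), so none was a copy. With tumors from 3 dogs, p-values treat the CL tumors as separate.

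The members, the 7 pathway lists, and the 11 marker lists (neutrophil, macrophage, T cell, natural killer and cytotoxic cell, B and plasma cell, luminal epithelium, epidermis, fibroblast, endothelium, skeletal muscle, and bone) were chosen with earlier results of these data known. Named genes are the members, up to 3 genes per list, comparison, and direction with the smallest unadjusted p under 0.05 (some of them given here), and for each member the 3 genes of mean log2 CPM of at least 1 with the highest tumor-centred correlation. The gene-dense score compares genes with at least 37 and at most 15 genes within 500 kb. Alternatives included DESeq2 1.42.0, no filter, other blocks, and leaving out libraries or tumors, and offsets for gene density and span were added after seeing the data. Models were tested on simulated data. Python 3.11.15 (scipy 1.17.1, pandas 2.3.3, numpy 2.4.6, matplotlib 3.10.9) served for all else. Levels per length, promoters, and proteins were not analysed here, so levels are not compared between genes.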

Additional observations from a re-analysis of the deposited data

Results flagged for a closer look

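In 4 of 27 groups of libraries (9 genes, 3 time groups) 1 library lay far from the rest by Dixon's criterion. Chance gives about 1.35 for independent groups, but these groups share tumors and are not independent. The share over all genes was not counted, so the number gives no result about the members. STAT4 was at 3 log2 CPM in the late library of BM, below the other 4 late libraries. STAT5A was at 6.96 log2 CPM in CL cranial before treatment and at 6.43 in CL cranial early, above the other libraries of those times, and at 4.60 in CL caudal late, below the other late libraries.

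In 2 of 27 comparisons RV moved opposite to each of the 3 mammary tumors. How often all genes do so was not counted, so the number gives no result about the members. STAT4 differed early from before by -1.11 log2 in RV and by 0.07 to 0.87 in the mammary tumors. STAT5B differed by 1.21 in RV and by -0.04 to -0.01 in the mammary tumors, the latter close to 0. With 1 sarcoma these differences were not tested.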

How the results depend on the processing

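Over all members, comparisons, and alternatives, 642 values kept their sign and their side of the threshold, 51 changed sign, and 9 passed the threshold that they had missed. The signs of SOCS3, STAT2, STAT6, and SOCS1 in the early biopsies, and their lower late than early levels, held under each alternative run. Members near 0 changed sign, and the cause was not tested.

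The number of genes called depended on the test. Early against before, edgeR called 1 gene, 17 without a filter on low counts, and 0 with DESeq2 size factors, with no replicate block (no pairing by tumor), with dog in place of tumor as block, with the CL tumors of a time point added up, with both late RV sites added up, or with the libraries compared alone, and DESeq2's Wald test called 956. Late against before, DESeq2 called 7 and edgeR 0, where 805 genes had an unadjusted p under 0.05. Late against early, edgeR called 2, 1081 without a filter (SOCS3 among them, -2.39, adjusted p = 0.0459), 474 with offsets for gene density and span (SOCS3 among them, -3.02, adjusted p = 0.0488), and 0 under the same settings other than DESeq2 size factors, and DESeq2 called 4809. Members called went from 0 to 2 early and from 0 to 3 late against early with DESeq2, and to 1 late against early without the filter and with the offsets. Members at an unadjusted p under 0.05 were 2 early, 1 with no replicate block, 1 with the offsets, and 4 with DESeq2. Late against early they were 3, 2 with no replicate block, 2 with the offsets, and 5 with DESeq2. With no replicate block SOCS3 lost its unadjusted p under 0.05 in both comparisons (1.99 and -1.32), and with the offsets STAT2 did (0.78 and -0.60). The median of the members late against early went from -0.95 to -0.60 with the offsets. The offsets moved the median of all genes from 0.25 to -0.07 early, from -0.05 to 0.08 late against before, and from -0.35 to 0.09 late against early, and the share of genes with unadjusted p under 0.05 that were higher from 70.9% to 45.5% early and from 33.3% to 57.8% late against early.

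Signs changed early against before with no replicate block for STAT4 (-0.14) and CISH (-0.24), with the dog as block for CISH (-0.04), and with the offsets for STAT3 (-0.43), STAT4 (-0.11), and STAT5B (-0.37). Late against before they changed with CL tumors summed for STAT5A (0.13), STAT5B (0.0086), and STAT6 (0.07), with the libraries compared alone for STAT3 (-0.00027), and with the offsets for STAT5A (0.0013) and STAT5B (0.15). Late against early they changed for STAT5A without the filter (0.0052), with CL tumors summed (0.20), and with the offsets (0.55), which also turned STAT3 (0.70) and STAT5B (0.51). At an adjusted p of 0.05 the fit with no replicate block changed no call of a member. DESeq2's early values were 1.24 for STAT2 and 3.14 for SOCS3, and its late against early values -1.23 for STAT2, -1.98 for SOCS1, and -2.47 for SOCS3.

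Leaving out 1 library or 1 tumor gave 0 to 12 genes called early against before, the highest without CL caudal early, and 0 to 2000 late against early, the highest without BM early, and 809 without RV before. It gave 0 to 2 members called late against early. The members' median early against before ran from 0.23 to 0.67, the latter without CL cranial. The members' median late against early ran from -1.17 to -0.52, the latter without RV early. Early against before, STAT4 ran from -0.33 (without BM early) to 0.62 (without RV), STAT5A from -0.31 to 0.22, STAT5B from -0.02 (without RV) to 0.40, and CISH from -0.20 to 0.67. Late against before, STAT2 ran from -0.14 to 0.28, STAT3 from -0.05 to 0.13, STAT5A from -0.51 to 0.22, STAT5B from -0.33 to 0.07, STAT6 from -0.68 to 0.67, STAT4 from 0.21 to 1.04, SOCS1 from -1.18 to -0.26, SOCS3 from 0.32 to 0.92, and CISH from -0.98 to -0.36. Late against early, STAT2 ran from -1.39 to -1.01, STAT5A from -0.41 to 0.22, STAT4 from 0.11 to 0.88, STAT6 from -2.06 to -0.69, CISH from -1.19 to -0.52, and SOCS3 from -2.94 to -1.98. With 7 residual degrees of freedom and SOCS3 at 7 counts in 1 library, precision is limited by the spread between tumors and, for SOCS1 and SOCS3, by counts. Levels per length were not run.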
